A study of Mus musculus with 24 samples.

Results

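Sorted lung epithelium of mice that received lung irradiation together with anti-Ly6G, given to deplete neutrophils, was compared with that of sham mice, 7 days after irradiation. The comparison takes 4 depleted and 4 sham libraries, 8 of the 24 libraries of the series, and covers the 16626 of 48795 gene identifiers that reached a normalised count of 10 in 4 or more of the 12 epithelial libraries. All mice were female Balb/c, 8 weeks old, and each library came from 1 mouse. Depleted mice received 13 Gy to the lungs and daily anti-Ly6G, an antibody against a surface protein of neutrophils. Irradiated mice received 13 Gy with control IgG, and sham mice received no irradiation and control IgG. The irradiated group has 4 libraries too, entered the same fit and is given beside the others where it helps to place a value. No library of the series came from mice given anti-Ly6G without irradiation. In depleted against sham the effects of the 2 treatments therefore cannot be told apart. The cells were sorted as EpCAM-positive and negative for CD45 (leukocytes), CD31 (endothelium) and Ter119 (erythroid cells). The protocol text writes CD45 a second time in the place of CD31.

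Ionising radiation breaks DNA, and the damage-activated kinases stabilise the transcription factor p53, which switches on genes for cell cycle arrest, DNA repair, apoptosis and its own feedback inhibitor Mdm2. The alveolar epithelium consists of surfactant-making type 2 cells, which also act as progenitors, and thin type 1 cells for gas exchange, with club and ciliated cells in the airways. Lung epithelium also makes acute-phase and complement proteins, and neutrophils are among the first leukocytes to enter injured lung.

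Depleted libraries held 8159062 to 9267632 reads, irradiated libraries 10884703 to 13373329 and sham libraries 9776113 to 11710964. A count of 0 allows up to 3 reads, a normalised count of 3.37 to 3.81 in depleted and 2.68 to 3.18 in sham libraries, for counting error alone. The sort was checked against its markers. Epcam had normalised counts of 1047, 1002, 1116 and 1037 in depleted and 1164, 1107, 1152 and 1181 in sham libraries, and the type 2 cell marker Sftpc, which codes for surfactant protein C, 319400 to 362200 in depleted and 366200 to 403300 in sham libraries. Some libraries stood apart. Depleted replicate 4 was the depleted library farthest from sham in 55.5% of the genes called higher and in 55.8% of those called lower. The club cell secretoglobin gene Scgb1a1 had 47500, 39600, 36830 and 34810 in depleted and 33520, 35110, 68190 and 63100 in sham libraries, where sham replicates 3 and 4 stood above the rest. Small RNA genes (small nuclear, small nucleolar and related classes) summed to 365400 to 521300 in depleted, 528200 to 590600 in irradiated and 492200 to 531100 in sham libraries.

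Normalised counts are reads divided by a size factor for each library, and the values of a group are given in the order of replicates 1 to 4. Each gene was tested with limma on log2(normalised count + 1), and a gene is called at a Benjamini-Hochberg adjusted p under 0.05 over all genes tested. A log2 change is depleted over sham and stands with its standard error, and a gene rose or fell where it was called.

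Of the 16626 genes tested, 1876 (11.3%) were called between depleted and sham epithelium, 1084 higher (6.52%) and 792 lower (4.76%). The shares of 6.52% and 4.76% are the ones to set beside the counts of gene list members below. A change of at least 2-fold was found in 339 of the genes called higher and 113 of those called lower, and 882 of the called genes changed by less than 0.5 on the log2 scale. The depleted and sham libraries of 1656 called genes did not overlap, and they did not overlap in 2769 (16.7%) of all genes tested. The median log2 change over all genes tested was -0.01. Of the 103 small RNA genes tested, 1 was higher and 41 were lower, with a median log2 change of -0.78, so the count of lower genes includes a class whose summed level was also low in depleted libraries against irradiated ones. Of the 13568 protein-coding genes tested, 1015 were higher and 664 lower. The number of genes called was 1187, with 712 higher and 475 lower, without sham replicate 3, and 1269 (731 and 538) without depleted replicate 4. With the mean level of 14 leukocyte markers as a covariate, 287 genes were called, 207 higher and 80 lower. That level, as a mean log2 value, was 5.24 to 5.82 in depleted, 5.40 to 6.48 in irradiated and 3.75 to 5.28 in sham libraries, so it moved with the groups and its part in the other results was not tested beyond that fit. A call can be lost in that fit through a smaller change or a larger standard error. The adjusted p alone does not tell these apart.

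**Figure D1:**
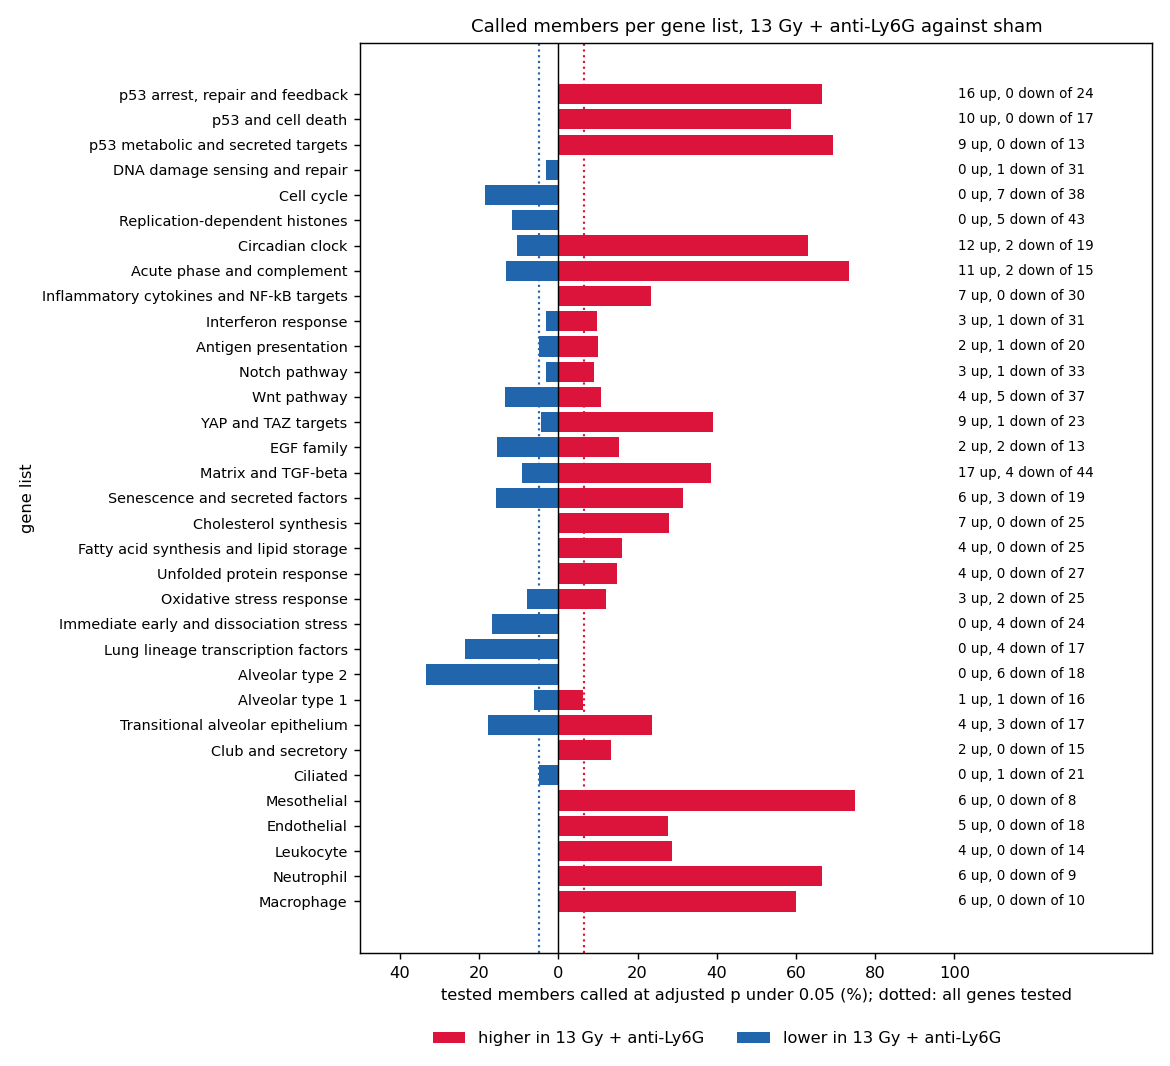
Share of the tested members of each gene list that were called at an adjusted p under 0.05 in 13 Gy plus anti-Ly6G against sham (4 libraries each), with bars to the right for higher and to the left for lower in depleted epithelium and the counts at the right edge. Dotted lines mark the same share over all 16626 genes tested, 6.52% higher and 4.76% lower. The 3 p53 lists, the clock list and the acute-phase and complement list reach furthest to the right among the pathway lists, and the type 2 list furthest to the left.

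Most p53 targets rose. Of 54 tested p53 target genes, 35 rose and 0 fell, against 6.52% of all genes called higher and 4.76% called lower. The median log2 change of the 54 was 0.69, 23 of them rose by more than 2-fold, and 35 had every depleted library above every sham library, as 8.76% of all genes did, against 7.89% with every depleted library below. By role, 16 of 24 genes for arrest, repair and feedback rose (median 0.60), 10 of 17 for cell death (0.58) and 9 of 13 for metabolism and secretion (1.05). The RNA of p53 itself did not pass the test. Trp53 had 248, 281, 214 and 254 in depleted and 257, 254, 238 and 254 in sham libraries (log2 -0.01 ± 0.083, adjusted p = 0.949).

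Promoter sequences of 3 of these genes are shown because they carry matches to the consensus of a p53 half-site, the sequence that a pair of p53 subunits binds. The windows run from 250 bases before to 50 after the annotated start and come from RefSeq on GRCm38.p6. Capitals mark the matches and the text runs 5′ to 3′ along the gene.
Cdkn1a (chr17:29090729-29091028, plus strand): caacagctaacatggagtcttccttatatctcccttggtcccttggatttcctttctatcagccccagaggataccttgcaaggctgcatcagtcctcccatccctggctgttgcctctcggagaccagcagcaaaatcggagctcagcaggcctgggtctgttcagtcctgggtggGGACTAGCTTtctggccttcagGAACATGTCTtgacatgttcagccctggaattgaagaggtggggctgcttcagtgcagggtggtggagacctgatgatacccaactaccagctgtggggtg
Ccng1 (chr11:40755237-40755536, minus strand): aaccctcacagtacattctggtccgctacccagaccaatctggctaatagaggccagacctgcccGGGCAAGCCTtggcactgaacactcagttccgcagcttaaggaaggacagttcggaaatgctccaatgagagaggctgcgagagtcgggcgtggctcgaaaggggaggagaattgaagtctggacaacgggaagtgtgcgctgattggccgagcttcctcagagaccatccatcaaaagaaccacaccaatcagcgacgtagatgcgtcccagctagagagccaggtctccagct
Bax (chr7:45466849-45467148, minus strand): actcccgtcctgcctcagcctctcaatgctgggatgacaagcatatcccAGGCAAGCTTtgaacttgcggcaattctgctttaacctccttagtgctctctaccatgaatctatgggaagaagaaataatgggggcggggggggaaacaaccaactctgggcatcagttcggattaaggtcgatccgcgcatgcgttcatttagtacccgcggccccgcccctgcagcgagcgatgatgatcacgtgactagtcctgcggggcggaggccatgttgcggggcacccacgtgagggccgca
In Cdkn1a the matches lie at bases -73 to -64 and -51 to -42 from the start. They count as a full site under the rule used here, 2 half-sites with at most 13 bases between them. Only exact matches to the consensus were marked, so a half-site with a differing base stays in lower case. In Ccng1 the match lies at -185 to -176 and in Bax at -201 to -192. Of the 35 called p53 targets, 31 had a window in the table and 10 of these (32.3%) held a half-site match on either strand, against 8.48% of the 11161 tested genes with a window and 9.55% of all 27025 genes in the table. A full site was found in 1 of the 31, Cdkn1a, and in 0.0448% of the tested genes. A match is a description of these letters and not a measured binding site.

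Among the genes for arrest and feedback, Phlda3, a p53-induced inhibitor of Akt (ENSMUSG00000041801, GRCm38 chromosome 1, start 135766119, end 135769136), had normalised counts of 459, 441, 459 and 543 in depleted, 337, 537, 375 and 404 in irradiated and 28.3, 32.9, 35.7 and 32.3 in sham libraries. Depleted and irradiated libraries shared a range far above the sham libraries. Phlda3 rose by 3.84 ± 0.12 on the log2 scale (adjusted p = 1.25e-12). The gene of the cyclin-dependent kinase inhibitor p21, Cdkn1a (ENSMUSG00000023067, chromosome 17, start 29090976, end 29100727), had 3762, 3231, 3380 and 5516 in depleted, 2545, 4162, 3126 and 3453 in irradiated and 532, 559, 533 and 455 in sham libraries. Depleted replicate 4 was the highest, and depleted and irradiated libraries lay wholly above sham. Cdkn1a rose by 2.90 ± 0.19 on the log2 scale (adjusted p = 1.06e-05). Ccng1, the gene of cyclin G1, had 2796, 2696, 3082 and 3607 in depleted and 486, 506, 575 and 628 in sham libraries (log2 2.47 ± 0.12). Psrc1, which codes for a microtubule-associated protein of the mitotic spindle, had 152, 147, 159 and 232 in depleted and 29.3, 30.8, 19.6 and 18.7 in sham libraries (log2 2.77 ± 0.19). The ubiquitin ligase gene Mdm2, the feedback arm, rose less, with 881, 897, 915 and 1127 in depleted and 510.3, 557, 539 and 557 in sham libraries (log2 0.81 ± 0.084, adjusted p = 7.51e-06).

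Among the cell death genes, Bax, a pore-forming member of the Bcl-2 family, had 315, 291, 268 and 395 in depleted and 91.7, 82.8, 82.2 and 92.6 in sham libraries, and its log2 change was 1.84 ± 0.12 (adjusted p = 2.08e-08). Eda2r (ENSMUSG00000034457, chromosome X, start 97333840, end 97377216), a receptor of the TNF receptor family, had 80.8, 81.3, 99.3 and 112 in depleted, 82.2, 114, 79.3 and 94.8 in irradiated and 16.6, 10.6, 8.93 and 7.29 in sham libraries (log2 3.04 ± 0.22). In both genes the depleted and sham libraries were far apart. Aen, an apoptosis-enhancing nuclease, rose by 1.82 ± 0.11. Pmaip1, which codes for the BH3-only protein Noxa, stood at low counts, 31.4, 22.9, 23.7 and 20.3 in depleted and 8.78, 10.6, 7.14 and 1.04 in sham libraries (log2 1.94 ± 0.42, adjusted p = 0.00679), and sham replicate 4 lay below the level that 3 reads give.

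Among metabolic and secreted targets, Dglucy (ENSMUSG00000021185, chromosome 12, start 100779057, end 100896981), the gene of the mitochondrial enzyme D-glutamate cyclase, had 429, 477, 529 and 635 in depleted and 43.9, 62.6, 48.2 and 49.96 in sham libraries (log2 3.31 ± 0.13, adjusted p = 4.15e-11). Gdf15, a stress-induced cytokine of the TGF-beta superfamily, had 361, 277, 339.7 and 371 in depleted, 270.1, 338, 236 and 257 in irradiated and 59.5, 53.1, 36.6 and 34.4 in sham libraries (log2 2.88 ± 0.17). Depleted and irradiated libraries were above every sham library. The thiamine transporter gene Slc19a2 rose by 1.98 ± 0.13 and Mgmt, which codes for an enzyme that removes alkyl groups from guanine, by 1.89 ± 0.21. Between depleted and irradiated epithelium limma called 0 of the 54 p53 targets, with 11 at an unadjusted p under 0.05, edgeR called 0 and DESeq2 called 1. With the leukocyte level as a covariate, 6 of the 17 cell death genes were called and Pmaip1 was not (log2 1.10, adjusted p = 0.34). The other p53 targets named here kept their call in that fit, with Mdm2 at adjusted p = 0.00213 the weakest.

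**Figure D2:**
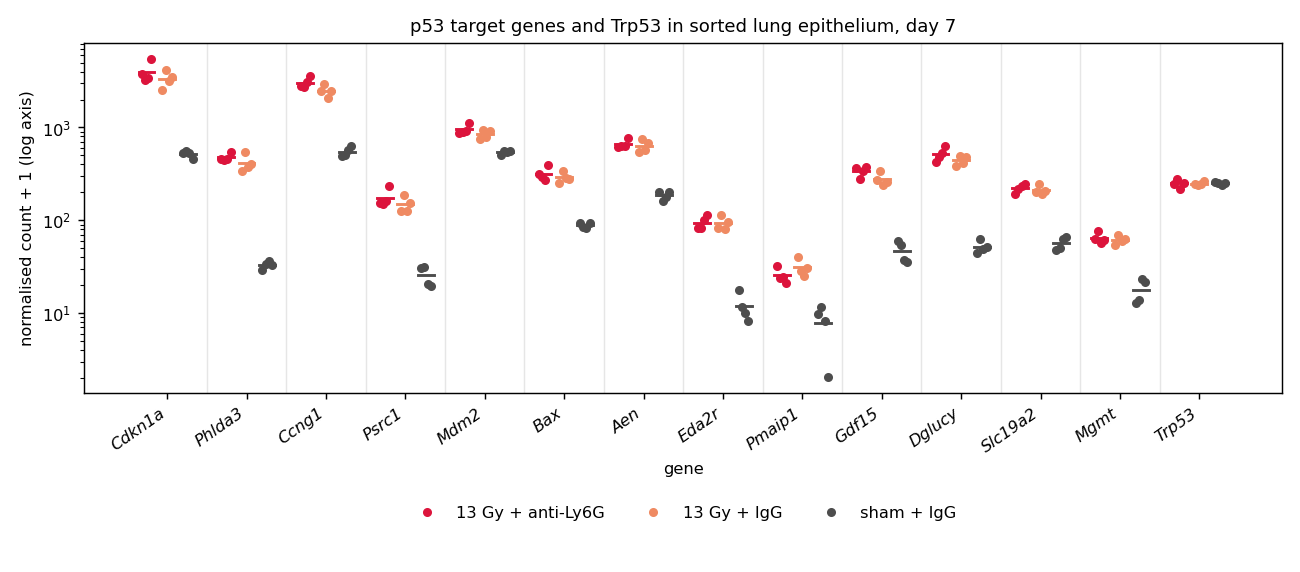
Normalised count plus 1 on a log axis of 13 p53 target genes and Trp53 in each epithelial library, with a dot per library and a bar at the mean of each group of 4. The depleted (red) and irradiated (orange) libraries of the 13 targets lie above the sham libraries (grey), while the 3 groups of Trp53 overlap.

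Some genes of proliferation fell in depleted epithelium, at low counts. Of 38 tested cell cycle genes, 0 rose and 7 fell (median log2 change -0.36), against 6.52% and 4.76% of all genes. Kif23, a mitotic kinesin, had 22.4, 43.2, 21.4 and 20.3 in depleted, 55.8, 29.9, 25.1 and 29.7 in irradiated and 59.5, 60.5, 48.2 and 54.1 in sham libraries. All depleted libraries lay below all sham libraries, and Kif23 fell by 1.09 (SE 0.26) on the log2 scale (adjusted p = 0.0109). Bub1, a kinase of the spindle checkpoint, had 58.4, 49.6, 55.3 and 35.9 in depleted and 83.9, 88.1, 96.5 and 122 in sham libraries and fell by 0.96 (SE 0.17) (adjusted p = 0.00174). Mki67, the proliferation marker Ki-67, did not pass the test (log2 -1.28 ± 0.41, adjusted p = 0.0762), with 98.8, 139, 86.9 and 63.4 in depleted, 287, 98.5, 81.7 and 73.95 in irradiated and 245, 186, 247 and 238 in sham libraries. Irradiated replicate 1 lay above every sham library for this gene, and without it the adjusted p for depleted against sham was 0.000903. The list count was 3 without depleted replicate 4 or sham replicate 3, 4 without sham replicate 1 or 4, and 0 with the leukocyte covariate. In bulk samples, fewer cycling cells and less RNA per cell cannot be told apart.

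Of 31 tested genes that sense and repair DNA breaks, 0 rose and 1 fell (median -0.10), with 6.52% higher and 4.76% lower over all genes tested. That gene was Rnf8, a ubiquitin ligase that acts at DNA breaks, with 169, 146, 166 and 178 in depleted and 229, 244, 187 and 211 in sham libraries (log2 -0.40 ± 0.10, adjusted p = 0.0139), and its adjusted p was 0.0515 without sham replicate 2. Of 43 replication-dependent histone genes tested, 0 rose and 5 fell (median -0.09), against the same shares of all genes. Hist2h3c2, a histone H3 gene, had 5.61, 5.08, 6.77 and 3.59 in depleted and 15.6, 18.04, 18.8 and 19.8 in sham libraries (log2 -1.63 ± 0.30, adjusted p = 0.00199), and Hist1h2bl, a histone H2B gene, 23.6, 26.7, 11.3 and 32.3 in depleted and 47.8, 45.6, 50.01 and 55.2 in sham libraries (log2 -1.14 ± 0.24). Histone genes are near-identical copies, so reads may be divided between them, and the list count was 2 or 3 without any 1 of 7 libraries, all of depleted and sham but depleted replicate 2.

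Circadian clock genes changed in both directions. In the clock, the activators Arntl (Bmal1), Clock and Npas2 drive E-box genes, among them the repressors Per and Cry and output factors such as Dbp and Tef. Of 19 tested clock genes, 12 rose and 2 fell (median log2 change 0.59), against 6.52% and 4.76% of all genes. The 2 that fell are activators. Arntl (ENSMUSG00000055116, chromosome 7, start 113207465, end 113314126) had 360.2, 250.4, 288 and 333 in depleted, 288, 225, 344 and 277 in irradiated and 424, 589, 581 and 533 in sham libraries (log2 -0.79 ± 0.14, adjusted p = 0.00344). Npas2 had 288, 264, 257 and 273 in depleted, 261, 202, 303 and 209 in irradiated and 367, 641, 681 and 540.2 in sham libraries (log2 -1.001 ± 0.18, adjusted p = 0.00496). In both genes sham replicate 1 was the sham library nearest to the depleted ones, and no depleted library reached it.

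The output factors and repressors named here moved the other way. Tef, a PAR-domain factor, had 2038, 2182, 1863 and 2520 in depleted, 1474, 2158, 1622 and 2061 in irradiated and 1213, 678, 632 and 819 in sham libraries (log2 1.40 ± 0.21, adjusted p = 0.00281). Ciart, a repressor of the clock, had 56.1, 62.3, 50.8 and 62.2 in depleted and 14.6, 16.98, 23.2 and 29.1 in sham libraries (log2 1.46 ± 0.24, adjusted p = 0.000946). Bhlhe41, a repressor that competes for E-boxes, had 49.4, 72.5, 75.6 and 61.02 in depleted and 24.4, 24.4, 10.7 and 20.8 in sham libraries (log2 1.68 ± 0.23, adjusted p = 0.000148). Sham replicate 1 was again the sham library nearest to depleted in Tef. Dbp had 417, 643, 616 and 291 in depleted and 303, 90.2, 70.5 and 147 in sham libraries, where sham replicate 1 overlapped the depleted range (log2 1.84 ± 0.43, adjusted p = 0.0258), and its adjusted p reached 0.0702 when depleted replicate 1, 2 or 3 or sham replicate 2, 3 or 4 was left out. Between depleted and irradiated libraries limma, edgeR and DESeq2 each called 0 of these 6 clock genes, and 0 had an unadjusted p under 0.05. Among all 19 tested clock genes, limma called 1 higher and 0 lower in depleted than in irradiated libraries. The shares over all genes tested were 0.204% and 0.271%, and 5 of the 19 had an unadjusted p under 0.05. With the leukocyte covariate 2 of the 12 rises were called, Bhlhe41 and Ciart (adjusted p = 0.0311 and 0.037), and Arntl and Npas2 were not (adjusted p = 0.158 and 0.163). The hour at which lungs were taken is not given in the sources used here.

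The Ciart promoter is shown because it holds 3 copies of the E-box CACGTG, the site that the clock activators bind, which capitals mark, at -116 to -111, -58 to -53 and -44 to -39 from the start (RefSeq, GRCm38.p6).
Ciart (chr3:95882179-95882478, minus strand): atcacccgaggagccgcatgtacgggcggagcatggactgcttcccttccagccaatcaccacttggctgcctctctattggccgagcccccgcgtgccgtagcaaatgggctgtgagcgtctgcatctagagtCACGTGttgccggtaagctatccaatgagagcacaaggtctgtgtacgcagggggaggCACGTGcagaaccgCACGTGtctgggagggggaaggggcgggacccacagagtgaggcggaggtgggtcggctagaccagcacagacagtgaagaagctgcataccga
CACGTG reads the same on both strands. Of 13 called clock genes with a window, 4 (30.8%) held it, Bhlhe41, Ciart, Per1 and Tef, against 11.3% of the tested genes with a window and 8.09% of all genes in the table. Per1 is named only as a holder of the motif.

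**Figure D3:**
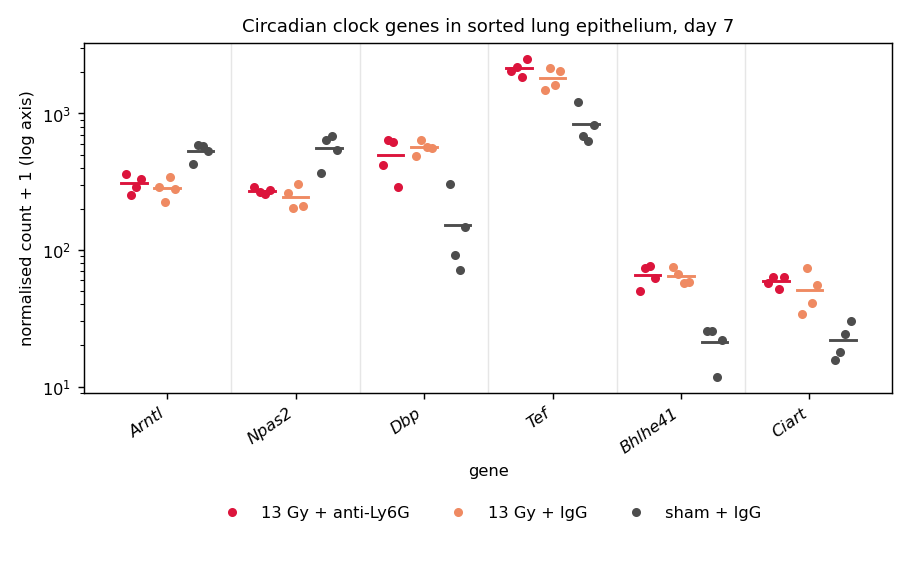
Normalised count plus 1 on a log axis of 6 circadian clock genes in each epithelial library, with a dot per library and a bar at the mean of each group of 4. Depleted (red) and irradiated (orange) libraries lie below sham (grey) in Arntl and Npas2 and above it in Tef, Bhlhe41 and Ciart, while 1 sham library of Dbp lies at the depleted level.

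Most acute-phase and complement genes rose. Of 15 tested, 11 rose and 2 fell, with a median log2 change of 1.32. Between depleted and irradiated epithelium limma called 1 of the 15 higher in depleted and 0 lower, with 10 at an unadjusted p under 0.05. The shares over all genes tested were 0.204% and 0.271%. Saa3 (ENSMUSG00000040026, chromosome 7, start 46711998, end 46715700), an acute-phase serum amyloid A made in the lung, had normalised counts of 608, 356, 377 and 694 in depleted, 20.6, 71.7, 20.2 and 24.1 in irradiated and 4.88, 5.31, 10.7 and 5.204 in sham libraries. The depleted libraries lay far above all others, with no overlap. Saa3 rose by 6.08 ± 0.40 on the log2 scale (adjusted p = 2.1e-06), and it was also higher than in irradiated epithelium, by 4.02 ± 0.40 (adjusted p = 0.00114). The related genes Saa1 and Saa2 did not pass the filter, with 6.73, 2.54, 1.13 and 17.9 for Saa1 in depleted and 0, 0, 1.79 and 0 in sham libraries.

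The complement genes covered the classical and alternative pathways. Cfb (ENSMUSG00000090231, chromosome 17, start 34856374, end 34862518), factor B of the alternative pathway, had 879, 587, 1080 and 1268 in depleted, 116, 469.6, 167 and 327 in irradiated and 68.3, 77.5, 95.6 and 98.9 in sham libraries (log2 3.43 ± 0.43, adjusted p = 0.0012). The irradiated libraries ranged between the 2 other groups. The difference from depleted did not pass the test (1.97 ± 0.43, adjusted p = 0.0993), which it passed with DESeq2 (adjusted p = 0.00239). C4b, complement component 4, had 1482, 1453, 1862 and 2014 in depleted and 544, 568, 449 and 434 in sham libraries (log2 1.77 ± 0.20), and C1s1, a protease of the C1 complex, 842, 630.5, 1143 and 1031 in depleted and 259.5, 324, 312 and 276 in sham libraries (log2 1.61 ± 0.21). The mouse C4b gene has a close paralog, so its reads may be divided.

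Both genes of the list that fell belong to complement as well. Hc (ENSMUSG00000026874, chromosome 2, start 34983331, end 35061438), the gene of complement C5, which type 2 cells make in quantity, had 24470, 27060, 22030 and 18600 in depleted, 29680, 23610, 26140 and 24700 in irradiated and 37910, 44160, 41380 and 43320 in sham libraries. All depleted libraries lay below all sham libraries, and Hc fell by 0.87 (SE 0.10) (adjusted p = 0.000189). Cd59a, an inhibitor of the membrane attack complex, had 68.5, 52.1, 71.1 and 49.1 in depleted and 77.1, 94.4, 96.5 and 103 in sham libraries and fell by 0.63 (SE 0.14) (adjusted p = 0.00938). Of the 11 rises, 5 were called with the leukocyte covariate. Saa3, C4b and Cfb were among them, with Cfb at adjusted p = 0.0469, and Hc kept its call (adjusted p = 0.014), while C1s1 and Cd59a did not (adjusted p = 0.0535 and 0.244).

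**Figure D4:**
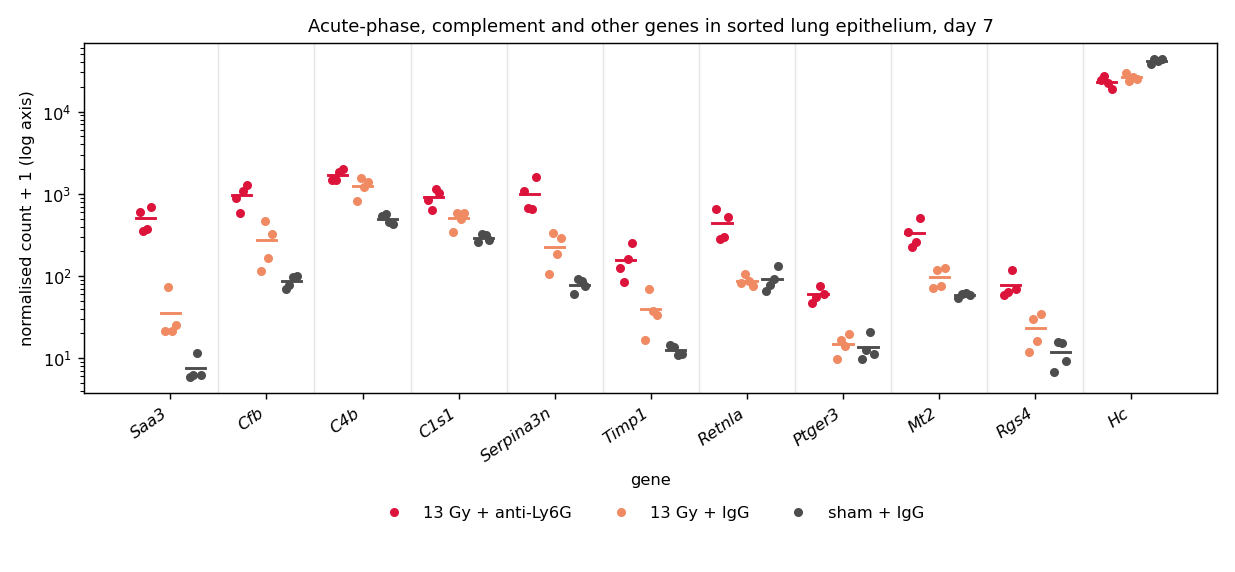
Normalised count plus 1 on a log axis of acute-phase and complement genes and of other genes named in the text, in each epithelial library, with a dot per library and a bar at the mean of each group of 4. In Saa3, Retnla, Ptger3 and Mt2 the depleted libraries (red) lie above both the irradiated (orange) and the sham (grey) libraries, while Hc lies lower in both irradiated groups than in sham.

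Other inflammatory genes changed at low to moderate levels. Of 30 inflammatory and NF-kB target genes tested, 7 rose and 0 fell (median log2 change 0.30). Lif, a cytokine of the IL-6 family, had 116, 141, 128 and 151 in depleted, 114, 132, 73.6 and 134 in irradiated and 45.9, 31.8, 41.1 and 48.9 in sham libraries (log2 1.66 ± 0.18, adjusted p = 1.29e-05). The monocyte chemokine gene Ccl2 had 40.4, 26.7, 28.2 and 55.04 in depleted and 8.78, 6.37, 9.82 and 13.5 in sham libraries (log2 1.84 ± 0.30, adjusted p = 0.00086). Ccl7, a chemokine for the same receptor, had 15.7, 13.98, 24.8 and 34.7 in depleted and 2.93, 2.12, 1.79 and 2.08 in sham libraries, and as the sham libraries stand at or under the level that 3 reads give, its log2 change of 2.78 ± 0.42 depends on the pseudocount. Cxcl10, an interferon-induced chemokine gene, had 31.4, 30.5, 25.96 and 32.3 in depleted and 12.7, 10.6, 8.04 and 14.6 in sham libraries (log2 1.34 ± 0.25, adjusted p = 0.0023). In all 4 genes the depleted and sham libraries did not overlap. Lif, Ccl2 and Ccl7 were called with the leukocyte covariate, and Cxcl10 was not (adjusted p = 0.0949).

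Few interferon and antigen presentation genes were called, at shares near the 6.52% and 4.76% of all genes. Of 31 interferon response genes, 3 rose and 1 fell (median -0.07), and of 20 antigen presentation genes 2 rose and 1 fell (median -0.15). Gbp2, a guanylate-binding GTPase, had 118, 132, 173 and 164 in depleted and 76.1, 73.2, 91.99 and 93.7 in sham libraries (log2 0.79 ± 0.15, adjusted p = 0.00309). Bst2, the antiviral tetherin gene, rose by 1.11 ± 0.23, while Ddx58, the RNA sensor RIG-I, fell by 0.34 (SE 0.085). Tap1, a subunit of the peptide transporter for MHC class I, rose by 0.41 ± 0.10 (adjusted p = 0.00937). None of Bst2, Ddx58 and Tap1 was called with the leukocyte covariate (adjusted p = 0.176, 0.0968 and 0.376).

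Among signalling pathways of the niche, 3 of 33 Notch pathway genes rose and 1 fell (median 0.03), shares near the 6.52% and 4.76% of all genes. Notch1, a receptor, had 1728, 1730, 1579 and 1790 in depleted and 1467, 1412, 1367 and 1396 in sham libraries (log2 0.27 ± 0.061, adjusted p = 0.00764), and Dll1, a ligand, 47.1, 59.7, 19.2 and 45.5 in depleted and 16.6, 19.1, 16.97 and 13.5 in sham libraries (log2 1.22 ± 0.29). The target gene Hes1 did not pass the test, with 401, 344, 411 and 327 in depleted, 464, 470.4, 472 and 357 in irradiated and 422, 424, 423 and 433 in sham libraries (log2 -0.21 ± 0.092, adjusted p = 0.173). Neither Notch1 nor Dll1 was called with the leukocyte covariate (adjusted p = 0.265 and 0.326).

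Of 37 Wnt pathway genes, 4 rose and 5 fell (median -0.05), against 6.52% and 4.76% of all genes. Rspo1, a secreted amplifier of Wnt signals that also stands in the mesothelial list, had 49.4, 45.8, 86.9 and 84.95 in depleted, 30.3, 37.8, 33.2 and 65.9 in irradiated and 18.5, 16.98, 17.9 and 22.9 in sham libraries (log2 1.70 ± 0.26, adjusted p = 0.000419). Sfrp1, a secreted antagonist, had 84.2, 45.8, 80.1 and 67.0 in depleted and 25.4, 29.7, 34.8 and 31.2 in sham libraries (log2 1.14 ± 0.20, adjusted p = 0.00147). Both kept their call with the leukocyte covariate (adjusted p = 0.00841 and 0.0342). The receptor gene Fzd7 had 614, 526, 587 and 462 in depleted and 715, 781, 806 and 773 in sham libraries and fell by 0.50 (SE 0.093). Znrf3, a ligase that removes Wnt receptors from the surface, fell by 0.29 (SE 0.071) (adjusted p = 0.0129), and neither was called with the covariate (adjusted p = 0.142 and 0.416). The count of lower Wnt genes was 2 without depleted replicate 4 and 3 without depleted replicate 1 or any 1 sham replicate.

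Of 23 targets of the transcription cofactors YAP and TAZ, 9 rose and 1 fell (median 0.15). Crim1, which binds BMP ligands, had 367, 336, 386 and 437 in depleted and 183, 168, 216 and 232 in sham libraries (log2 0.93 ± 0.15, adjusted p = 0.00108). Axl, a receptor tyrosine kinase, had 189.6, 191, 174 and 203 in depleted and 84.9, 117, 88.4 and 73.9 in sham libraries (log2 1.07 ± 0.22, adjusted p = 0.00773), and Fjx1, a Golgi kinase gene, stood at 24.7, 22.9, 19.2 and 25.1 in depleted and 7.81, 8.49, 6.25 and 11.4 in sham libraries (log2 1.36 ± 0.27). Amotl1, which retains YAP in the cytoplasm, fell by 0.26 (SE 0.059). Crim1 was called with the leukocyte covariate (adjusted p = 0.0331), where 2 of the 9 rises were, and Axl, Fjx1 and Amotl1 were not (adjusted p = 0.248, 0.104 and 0.193). In the EGF family 2 of 13 genes rose and 2 fell, against 6.52% and 4.76% of all genes. Hbegf, a ligand of the EGF receptor, had 296, 304, 282 and 254 in depleted and 449, 389, 356 and 341 in sham libraries and fell by 0.43 (SE 0.094) (adjusted p = 0.00648, and adjusted p = 0.0635 with the covariate).

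Matrix genes were called higher more often than lower. Of 44 matrix and TGF-beta genes, 17 rose and 4 fell (median 0.21), against 6.52% and 4.76% of all genes. Tgfbi, a secreted matrix protein induced by TGF-beta, had 956, 1084, 1071 and 955 in depleted, 1155, 1251, 1172 and 1164 in irradiated and 611, 396, 436 and 477 in sham libraries (log2 1.10 ± 0.10, adjusted p = 6.95e-06). Lox, the collagen cross-linking lysyl oxidase, had 597, 419.5, 393 and 796 in depleted, 223, 382, 296 and 311 in irradiated and 174, 225, 207 and 271 in sham libraries (log2 1.29 ± 0.24, adjusted p = 0.00842). Depleted replicates 1 and 4 were the highest in Lox. Col1a1, a fibrillar collagen that fibroblasts make, had 1744, 1600, 1649 and 1328 in depleted and 1213, 1317, 1162 and 1120 in sham libraries (log2 0.39 ± 0.090, adjusted p = 0.0111). Timp1 (ENSMUSG00000001131, chromosome X, start 20870166, end 20874735), an inhibitor of matrix metalloproteinases, had 125, 82.6, 159 and 252 in depleted, 15.7, 67.8, 36.4 and 32.96 in irradiated and 13.7, 12.7, 9.82 and 10.4 in sham libraries (log2 3.52 ± 0.39, adjusted p = 0.00012). Ltbp4, which binds latent TGF-beta, fell by 0.30 (SE 0.070) (adjusted p = 0.0109). With the leukocyte covariate 5 of the 17 rises and 0 of the 4 falls were called. Tgfbi and Timp1 kept their call (adjusted p = 0.00159 and 0.0157), and Lox, Col1a1 and Ltbp4 did not (adjusted p = 0.137, 0.391 and 0.0948). In that fit the log2 changes of Lox, Col1a1 and Ltbp4 were 1.32, 0.218 and -0.345. The count of falls was 2 without depleted replicate 4 or sham replicate 1 or 3. Of 12 adventitial fibroblast markers, which share Dcn with this list, 4 rose and 2 fell (2 rose without sham replicate 2 or 3). Of 12 alveolar fibroblast markers 1 rose and 1 fell, shares near the 6.52% and 4.76% of all genes. The part of fibroblasts in the matrix changes was not tested.

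Of 19 genes of senescence and secreted factors, 6 rose and 3 fell (median 0.29). Igfbp4 (ENSMUSG00000017493, chromosome 11, start 99041244, end 99054392), a binding protein of insulin-like growth factors, had 557, 458, 433 and 468 in depleted, 331, 386, 278 and 288 in irradiated and 189, 195, 188 and 218 in sham libraries (log2 1.27 ± 0.10, adjusted p = 3.93e-07). Plau, the urokinase gene, had 24.7, 40.7, 30.5 and 31.1 in depleted and 8.78, 19.1, 4.46 and 5.204 in sham libraries (log2 1.84 ± 0.34, adjusted p = 0.00215), and Mmp3, a matrix metalloproteinase, 60.6, 59.7, 42.9 and 72.99 in depleted and 24.4, 32.9, 31.3 and 16.6 in sham libraries (log2 1.16 ± 0.22). Igfbp4 was called with the leukocyte covariate (adjusted p = 0.000169), and Plau and Mmp3 were not (adjusted p = 0.259 and 0.129); the count of rises was then 2. Cdkn2a, the locus of the senescence marker p16, did not pass the filter and had 0, 2.54, 0 and 1.197 in depleted libraries and 0 in all sham libraries.

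Some lipid synthesis genes rose by small amounts. Of 25 cholesterol synthesis genes, 7 rose and 0 fell (median 0.19), and of 25 fatty acid and lipid storage genes 4 rose and 0 fell (median 0.12). Acat2, which makes acetoacetyl-CoA, had 1017, 938, 867 and 1205 in depleted and 729.8, 634, 678 and 638 in sham libraries (log2 0.58 ± 0.10, adjusted p = 0.00178). Lpin1, a phosphatidate phosphatase, had 792, 848, 915 and 808 in depleted and 606, 505, 569.8 and 508 in sham libraries (log2 0.62 ± 0.082, adjusted p = 0.000102). Lpin1 kept its call with the leukocyte covariate (adjusted p = 0.0124) and Acat2 did not (adjusted p = 0.0915). The cholesterol count was 2 to 4 without depleted replicate 1, 3 or 4 or sham replicate 2, 3 or 4, and 0 with the covariate. The fatty acid count was 1 without depleted replicate 1 and 2 without sham replicate 2 or 3.

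Of 27 genes of the unfolded protein response, 4 rose and 0 fell (median 0.14). Herpud1, which aids degradation of misfolded proteins, had 2780, 2723, 2412 and 3152 in depleted, 1673, 2078, 1749 and 2231 in irradiated and 1732, 1402, 1496 and 1781 in sham libraries (log2 0.79 ± 0.11, adjusted p = 0.000607). Hyou1, a chaperone of the endoplasmic reticulum, rose by 0.26 ± 0.059 (adjusted p = 0.00749). The count was 2 without depleted replicate 4 or sham replicate 2 or 3, and 1, Herpud1, with the leukocyte covariate (adjusted p = 0.0283). Of 25 oxidative stress genes, 3 rose and 2 fell (median 0.08), against 6.52% and 4.76% of all genes. The rises were led by the metallothioneins, which bind zinc and copper. Mt2 (ENSMUSG00000031762, chromosome 8, start 94172664, end 94173568) had 344, 226, 259.6 and 504 in depleted, 71.4, 116, 75.2 and 124 in irradiated and 52.7, 59.4, 61.6 and 58.3 in sham libraries, and the depleted libraries did not overlap either group (log2 2.44 ± 0.24, adjusted p = 3.87e-05). Mt1 had 726, 623, 479.6 and 754 in depleted and 235, 289, 335 and 314 in sham libraries (log2 1.13 ± 0.16, adjusted p = 0.00119). Nfe2l2, the oxidative stress regulator Nrf2, rose by 0.32 ± 0.065, and Pgd, an enzyme of the pentose phosphate pathway, fell by 0.24 (SE 0.048). Mt2 and Mt1 kept their call with the leukocyte covariate (adjusted p = 0.00591 and 0.0479), and Nfe2l2 and Pgd did not (adjusted p = 0.105 and 0.0934).

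Some immediate early genes, which also respond to cell dissociation, fell. Of 24 tested, 0 rose and 4 fell, against 6.52% and 4.76% of all genes, while the median of the list was above 0 (0.06). Fosb, an AP-1 subunit, had 6878, 6924, 6774 and 7550 in depleted, 7523, 9887, 8528 and 8451 in irradiated and 11210, 11730, 12040 and 11330 in sham libraries and fell by 0.72 (SE 0.066) (adjusted p = 2.1e-06). Fos fell by 0.34 (SE 0.061) and Nr4a1, an orphan nuclear receptor, by 0.32 (SE 0.076). Fosb kept its call with the leukocyte covariate (adjusted p = 9.03e-05), and Fos and Nr4a1 did not (adjusted p = 0.0785 and 0.259). Of 15 protein-coding and ribosomal RNA genes of the mitochondrial genome, 1 rose and 1 fell (median -0.33), shares near the 6.52% and 4.76% of all genes. mt-Nd4l, a complex I subunit, had 1375, 1623, 1615 and 1876 in depleted, 2218, 2576, 2108 and 2336 in irradiated and 2133, 2045, 2083 and 1940 in sham libraries (log2 -0.35 ± 0.080, adjusted p = 0.00991). It overlaps its neighbour, so reads may be divided, and its change was 0.07 on the log2 scale in the fit corrected for length and GC.

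Some markers of alveolar type 2 cells fell. Of 18 tested, 0 rose and 6 fell (median -0.12). Besides Hc, Egfl6, a secreted EGF-like protein, had 2006, 2452, 2351 and 1442 in depleted, 3098, 2370, 2961 and 2574 in irradiated and 3389, 3091, 3506 and 3434 in sham libraries and fell by 0.73 (SE 0.15) (adjusted p = 0.0126). Cxcl15, the lung chemokine lungkine, had 43440, 46510, 44920 and 38040 in depleted and 49160, 51850, 58470 and 60030 in sham libraries and fell by 0.34 (SE 0.080) (adjusted p = 0.011). Depleted replicate 4 was the lowest depleted library in both. Sftpc did not pass the test (log2 -0.16 ± 0.059, adjusted p = 0.0923), although its depleted and sham libraries did not overlap. With the leukocyte covariate 1 of the 6 falls, Hc, was called, and Egfl6 and Cxcl15 were not (adjusted p = 0.23 and 0.254).

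Of 16 type 1 markers, 1 rose and 1 fell (median 0.12), shares near the 6.52% and 4.76% of all genes. Cldn18, a tight junction protein of the alveoli, had 6017, 6175, 6220 and 4354 in depleted and 8427, 7659, 8257 and 8005 in sham libraries and fell by 0.52 (SE 0.10) (adjusted p = 0.00392, and adjusted p = 0.117 with the leukocyte covariate). Ager, the type 1 marker RAGE, had 9319, 9564, 8322 and 9552 in depleted and 12550, 10850, 9163 and 9179 in sham libraries and did not pass the test (adjusted p = 0.237). Of 17 markers of the transitional state between type 2 and type 1 cells, 4 rose and 3 fell (median -0.10). Krt8, the keratin that marks that state, fell, with 1758, 1372, 1742 and 1509 in depleted and 2090, 1860, 1796 and 1858 in sham libraries (log2 -0.26 ± 0.075, adjusted p = 0.0326). Its adjusted p reached 0.107 without depleted replicate 2 or 4 or sham replicate 1, 2 or 4, and with the covariate it was 0.317. Plaur, the urokinase receptor, had 71.8, 87.7, 45.1 and 83.8 in depleted and 36.1, 29.7, 39.3 and 29.1 in sham libraries (log2 1.05 ± 0.21, adjusted p = 0.00365, and adjusted p = 0.163 with the covariate). The count of rises in this list was 2 without depleted replicate 1 or 3, irradiated replicate 2 or sham replicate 2, 3 or 4.

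In the airway lists, 2 of 15 club and secretory genes rose and 0 fell (median 0.00), against 6.52% and 4.76% of all genes. Of 21 ciliated genes 0 rose and 1 fell, a share of falls near that 4.76%, with the median on the other side of 0 (0.13). Retnla (ENSMUSG00000061100, chromosome 16, start 48842551, end 48844461), a resistin-like secreted protein of airway epithelium, had 654, 284, 299 and 518 in depleted, 82.2, 105, 86.6 and 73.95 in irradiated and 64.4, 77.5, 90.2 and 130.1 in sham libraries (log2 2.22 ± 0.29, adjusted p = 0.000946). The irradiated and sham libraries overlapped, and each depleted library lay above them. Cbr2, a carbonyl reductase of club cells, had 36450, 33520, 36290 and 33230 in depleted and 28080, 24690, 26780 and 28110 in sham libraries (log2 0.37 ± 0.056, adjusted p = 0.000384). Tppp3, a tubulin-binding protein of ciliated cells, had 505, 411, 535 and 416 in depleted, 535, 483, 511 and 552 in irradiated and 705, 694, 751 and 695 in sham libraries and fell by 0.62 (SE 0.081) (adjusted p = 9.69e-05). All 3 kept their call with the leukocyte covariate (adjusted p = 0.0164, 0.0131 and 0.0201). Scgb1a1 and the ciliary factor Foxj1 did not pass the test (adjusted p = 0.54 and adjusted p = 0.339). Of 17 transcription factors of lung lineages, 0 rose and 4 fell (median -0.09), against 6.52% and 4.76% of all genes. Id2, an inhibitor of bHLH factors that marks distal progenitors, had 658, 704, 798 and 594 in depleted and 1018, 1031, 1022 and 1135 in sham libraries and fell by 0.62 (SE 0.11) (adjusted p = 0.0029), and Elf5, an ETS factor, fell by 0.22 (SE 0.048). Neither was called with the covariate (adjusted p = 0.142 and 0.229), and the count was 2 without depleted replicate 2 or sham replicate 3 or 4.

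Several markers of cell types other than epithelium rose in depleted against sham libraries, with 0 lower in the mesothelial, endothelial, pericyte, leukocyte, macrophage and neutrophil lists. The part of such cells in the gene changes was not tested beyond the leukocyte covariate. In further lists, 0 of 6 lymphocyte markers were called and 1 of 9 smooth muscle and myofibroblast markers rose. Among 5 erythroid and platelet markers 1 rose, and none of these lists had a fall. Of 8 mesothelial markers, 6 rose and 0 fell (median 1.85), against 6.52% and 4.76% of all genes. Wt1, the mesothelial transcription factor, had 57.2, 34.3, 92.5 and 104 in depleted, 14.7, 31.5, 9.71 and 32.96 in irradiated and 13.7, 6.37, 17.9 and 18.7 in sham libraries (log2 2.24 ± 0.45, adjusted p = 0.00693). Bnc1, which codes for basonuclin, had 35.9, 20.3, 65.5 and 74.2 in depleted and 11.7, 8.49, 12.5 and 8.33 in sham libraries (log2 2.004 ± 0.38, adjusted p = 0.00299). Depleted replicates 3 and 4 had the highest levels of both. The summed level of the 8 markers was 1004 to 2544 in depleted, 642.5 to 1757 in irradiated and 477.5 to 724 in sham libraries. In the covariate fit 2 of the 6 were called, Bnc1 and Rspo1 (adjusted p = 0.0485 and 0.00841), and Wt1 was not (adjusted p = 0.0654).

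Of 18 endothelial markers, 5 rose and 0 fell (median 0.79), and their summed level was 3003 to 4397 in depleted, 3051 to 5158 in irradiated and 1986 to 2618 in sham libraries. Lyve1, a receptor of lymphatic endothelium, had 130.2, 172, 68.8 and 165 in depleted and 11.7, 24.4, 19.6 and 26.02 in sham libraries (log2 2.63 ± 0.40, adjusted p = 0.00219). Pecam1, which codes for the gate marker CD31, had 313, 394, 199.7 and 257 in depleted and 169, 202, 164 and 124 in sham libraries and did not pass the test (adjusted p = 0.0673), which it passed with DESeq2 (adjusted p = 0.0022) and without depleted replicate 3 or irradiated replicate 2 (adjusted p down to 0.0271). The endothelial count was 2 without depleted replicate 1 or 2 or sham replicate 4, 3 without depleted replicate 4, and 8 without irradiated replicate 2. Of 8 pericyte markers 2 rose, and Rgs5, a regulator of G protein signalling in pericytes, had 34.8, 35.6, 27.1 and 38.3 in depleted and 1.95, 7.43, 5.36 and 2.08 in sham libraries (log2 2.88 ± 0.38, adjusted p = 0.0001, and adjusted p = 0.0295 with the leukocyte covariate).

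Of 14 leukocyte markers, 4 rose and 0 fell (median 1.07). Tyrobp, a signalling adaptor of myeloid cells, had 38.1, 34.3, 20.3 and 16.8 in depleted, 16.6, 53.6, 19.4 and 24.1 in irradiated and 6.83, 15.9, 3.57 and 4.16 in sham libraries (log2 1.85 ± 0.43, adjusted p = 0.0117). Ptprc, which codes for the gate marker CD45, had 109, 166, 138 and 108 in depleted, 191, 284, 104 and 160 in irradiated and 80.01, 115, 50.9 and 28.1 in sham libraries and did not pass the test (adjusted p = 0.152). The summed level of the 14 leukocyte markers overlapped between the groups, at 2448 to 3398 in depleted, 3205 to 4225 in irradiated and 2966 to 3352 in sham libraries. The tested leukocyte markers without Lcp1, which holds most of the sum, came to 531 to 787 in depleted, 547 to 1287 in irradiated and 187 to 487 in sham libraries. Among leukocyte markers, 8 were called without sham replicate 2, 1 without sham replicate 3 and 2 without sham replicate 4. Of 10 macrophage markers, 6 rose and 0 fell (median 1.58), with Ccl6, a myeloid chemokine gene, at 119, 145, 94.8 and 134 in depleted and 33.2, 38.2, 18.8 and 9.37 in sham libraries (log2 2.42 ± 0.49, adjusted p = 0.0125). The macrophage count was 2 without sham replicate 3 and 3 without depleted replicate 2 or sham replicate 4.

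Transcripts of neutrophils, the cells that anti-Ly6G targets, rose against sham. Of 9 tested neutrophil markers, 6 rose and 0 fell against sham (median 2.22). S100a8, an abundant calcium-binding protein of neutrophils, had 56.1, 57.2, 38.4 and 142 in depleted, 17.6, 73.3, 21.04 and 49.03 in irradiated and 1.95, 4.24, 4.46 and 0 in sham libraries. The sham values are those of a few reads, and the fitted log2 change was 4.44 ± 0.62 (adjusted p = 0.00104). S100a9, its partner, had 37.03, 106, 42.9 and 168 in depleted, 46.0, 158, 48.5 and 104 in irradiated and 13.7, 14.9, 8.93 and 3.12 in sham libraries (log2 2.91 ± 0.63, adjusted p = 0.0155). Ngp, a neutrophil granule protein, had 17.9, 17.8, 14.7 and 57.4 in depleted and 0, 5.31, 0 and 1.04 in sham libraries (log2 3.66 ± 0.70, adjusted p = 0.00319). Between depleted and irradiated libraries limma called 0 of the 9, with 2 at an unadjusted p under 0.05, edgeR called 0 and DESeq2 called 1. Ly6g, the target of the antibody, did not pass the filter, with 0, 5.08, 3.39 and 1.197 in depleted, 0.979, 0, 0.809 and 2.41 in irradiated and 0 in all sham libraries. The summed level of the 9 markers overlapped between the groups, at 1031 to 2513 in depleted, 336 to 1291 in irradiated and 326 to 2206 in sham libraries, with Ltf as the most abundant member. The tested neutrophil markers without Ltf, which airway glands also make, came to 157 to 473 in depleted, 146 to 503 in irradiated and 15.6 to 71.1 in sham libraries. These libraries come from cells sorted without CD45 and so do not measure how many neutrophils a lung held. With the leukocyte covariate 1 of the 6 was called, S100a8 (adjusted p = 0.0432).

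**Figure D5:**
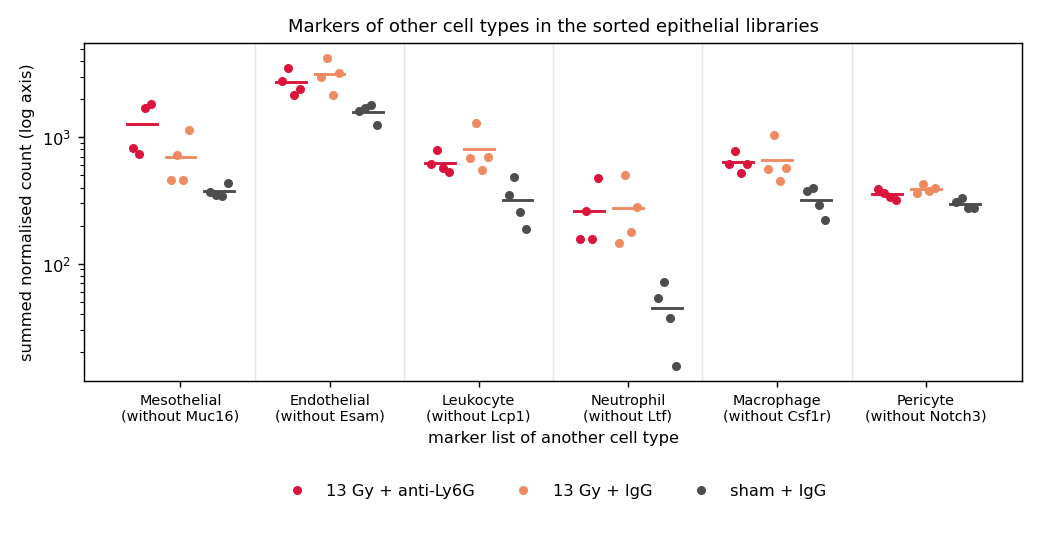
Summed normalised count on a log axis of the tested markers of 6 other cell types in each epithelial library, each list without its most abundant member, with a dot per library and a bar at the mean of each group of 4. The mesothelial, endothelial, leukocyte, neutrophil and macrophage sums of depleted (red) and irradiated (orange) libraries lie above every sham sum (grey). With the most abundant member kept, the leukocyte and neutrophil sums of the groups overlap. With it kept in the mesothelial and macrophage lists, the lowest irradiated sum is below the highest sham sum (642.5 against 724.4, and 725.8 against 725.9).

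The 15 largest rises and 15 largest falls were taken among called genes with a mean of at least 50 in the higher group and no overlap. Predicted genes, pseudogenes and small RNA genes were left out of this ranking. Of the 15 rises, 6 are p53 targets described above, Phlda3, Dglucy, Eda2r, Cdkn1a, Gdf15 and Psrc1. Serpina3n (ENSMUSG00000021091, chromosome 12, start 104406729, end 104414329), an acute-phase inhibitor of serine proteases, had 1093, 665, 660.2 and 1584 in depleted, 105, 329, 184 and 285 in irradiated and 59.5, 91.3, 85.7 and 73.9 in sham libraries (log2 3.59 ± 0.40, adjusted p = 0.000658). Depleted replicates 1 and 4 were the highest. Abcb1b, a drug efflux pump of the P-glycoprotein family, had 63.96, 76.3, 82.4 and 162 in depleted, 37.2, 37.8, 27.5 and 37.8 in irradiated and 9.76, 14.9, 4.46 and 9.37 in sham libraries (log2 3.20 ± 0.31, adjusted p = 5.42e-06). Ddias, an inhibitor of apoptosis after DNA damage, had 65.1, 64.8, 91.4 and 110.1 in depleted and 6.83, 8.49, 14.3 and 15.6 in sham libraries (log2 2.80 ± 0.26, adjusted p = 2.1e-06). All 3 kept their call with the leukocyte covariate (adjusted p = 0.0317, 0.00163 and 7.65e-05).

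The largest fall in that ranking was Fbn2, the gene of the microfibril protein fibrillin-2. Fbn2 had 44.9, 68.6, 63.2 and 15.6 in depleted, 188, 66.2, 133 and 79.6 in irradiated and 248, 193, 239 and 179 in sham libraries (log2 -2.32 ± 0.47, adjusted p = 0.0132). Gkn3, a gastrokine, had 14.6, 20.3, 20.3 and 3.59 in depleted and 62.4, 58.4, 52.7 and 48.9 in sham libraries (log2 -2.07 ± 0.41, adjusted p = 0.00487). In both genes depleted replicate 4 was the lowest of all. Kcnk3, the gene of the potassium channel TASK-1, had 23.6, 21.6, 31.6 and 25.1 in depleted, 42.1, 37.03, 38.03 and 40.2 in irradiated and 80.98, 70.03, 75.02 and 78.1 in sham libraries (log2 -1.55 ± 0.16, adjusted p = 7.12e-06). No library of any of the 3 groups overlapped another group, with irradiated in between. Cdh16, a cadherin first known from kidney epithelium, had 323, 319, 298 and 177 in depleted, 484, 286, 379 and 329 in irradiated and 778, 637, 707 and 631 in sham libraries (log2 -1.33 ± 0.21, adjusted p = 0.00288). Ccr6, a chemokine receptor, had 69.6, 52.1, 42.9 and 43.1 in depleted and 95.6, 114, 142 and 104 in sham libraries (log2 -1.13 ± 0.19, adjusted p = 0.00113). Of these 5, Kcnk3 alone kept its call with the leukocyte covariate (adjusted p = 0.0022), where Fbn2 stood at adjusted p = 0.194, Gkn3 at adjusted p = 0.0635, Cdh16 at adjusted p = 0.0949 and Ccr6 at adjusted p = 0.0819.

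A direct test of depleted minus irradiated epithelium, which both received 13 Gy, called 79 genes (0.475%), 34 higher (0.204%) and 45 lower (0.271%), and 20 of those 45 were small RNA genes. Saa3 was the largest of the named differences, given above. Retnla was higher by 2.24 ± 0.29 (adjusted p = 0.00756) and Mt2 by 1.75 ± 0.24 (adjusted p = 0.00616). Ptger3 (ENSMUSG00000040016, chromosome 3, start 157566892, end 157645888), the prostaglandin E receptor EP3, had 46.01, 54.7, 75.6 and 59.8 in depleted, 8.81, 15.8, 12.9 and 18.5 in irradiated and 8.78, 11.7, 19.6 and 10.4 in sham libraries. Its irradiated and sham libraries overlapped while every depleted library lay above both, with a difference from irradiated of 2.02 ± 0.28 (adjusted p = 0.00288) and a log2 change from sham of 2.18 ± 0.28 (adjusted p = 7.49e-05). Rgs4, a regulator of G protein signalling, had 58.4, 63.6, 117 and 69.4 in depleted, 10.8, 29.1, 15.4 and 33.8 in irradiated and 5.85, 14.9, 14.3 and 8.33 in sham libraries, with a difference from irradiated of 1.83 ± 0.36 (adjusted p = 0.0367). Timp1 differed by 2.05 ± 0.39 (adjusted p = 0.0436) and Igfbp4 by 0.58 ± 0.10 (adjusted p = 0.0119).

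The calls of Saa3, Retnla, Mt2 and Ptger3 against irradiated held without any 1 of the 12 libraries, with adjusted p up to 0.00928, 0.0373, 0.0267 and 0.00994 in that order. Those of the other 3 did not. Rgs4 reached 0.121 when depleted replicate 1, 2 or 4, irradiated replicate 1 or 3 or sham replicate 4 was left out, Timp1 0.12 when depleted replicate 1, 3 or 4, irradiated replicate 3 or 4 or sham replicate 1, 2, 3 or 4 was left out, and Igfbp4 0.0566 when depleted replicate 1 or irradiated replicate 3 or 4 was left out. With the 2 groups fitted alone, the adjusted p was 0.0904 for Mt2, 0.0513 for Igfbp4, 0.0742 for Rgs4 and 0.212 for Timp1. Some ribosomal protein genes were lower in depleted than in irradiated and in sham libraries. Rpl35a had 232, 238, 226 and 281 in depleted, 339.6, 355, 438 and 397 in irradiated and 363, 309.8, 312 and 323 in sham libraries, and its difference from irradiated was -0.64 ± 0.092 (adjusted p = 0.00315). Rpl26 had 218, 219, 186 and 258 in depleted, 377, 311, 392 and 329.6 in irradiated and 284, 300.3, 365 and 361 in sham libraries, a difference of -0.68 ± 0.11 (adjusted p = 0.00738). Both have processed pseudogenes that can share their reads. Of 77 cytosolic ribosomal protein genes tested, 19 were higher and 4 lower in depleted than in sham libraries, and 0 were higher and 3 lower than in irradiated ones. The number of genes called in depleted minus irradiated was 199 without depleted replicate 3, 36 without irradiated replicate 3, 43 without depleted replicate 1 or irradiated replicate 1, and 49 without irradiated replicate 4.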

How the data were processed

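RNA-seq of total RNA was made from sorted lung epithelium of 12 mice, 4 in each of the depleted, irradiated and sham groups, with ribosomal RNA removed, per the labels' protocols. The submitters' processing notes name cutadapt 1.5, STAR 2.2.2a, SAMtools 1.8, RSEM 1.3.0, DESeq2 (version not given in the sources used here) and the genome build GRCm38, with no roles stated. The values the authors deposited are gene counts divided by a size factor for each library, a signal that is comparable between libraries of this table and is called a normalised count here. The strand setting of the counting is not given in the sources used here. Dividing by the smallest step gave whole reads within 0.001 for 100% of values, and these reads gave the depths and the count tests among the alternatives.

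Genes that reached 10 in 4 or more libraries were tested with limma 3.58.1 (trend, robust) in R 4.3.3 on log2(value + 1), with the 3 groups in 1 fit and Benjamini-Hochberg adjustment over all 16626 genes. A gene was called at an adjusted p under 0.05. Every adjusted p in the text is from limma unless another tool is named, every log2 change is on the log2(value + 1) scale, which understates the change of genes at low counts, and ± or SE gives its standard error with 4 libraries a group. The 4 values of a group are in the order of replicates 1 to 4. Each library is from 1 mouse, so the spread includes that between animals. Replicates of a group differed by more than counting noise, and none was counted as a copy. The fit was tested on simulated data.

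Genes named are the 15 largest rises and falls with no overlap and a mean of at least 50, the 5 largest in each direction of those also called against irradiated, up to 4 called members in each direction of each list, and fixed hallmark genes, of which the text gives a selection. Predicted genes, pseudogenes and small RNA genes were left out of the largest changes. The members and lists were chosen with earlier results of these data known. Symbols and positions are from GENCODE M21. Alternatives were another pseudocount, filter or scaling, edgeR 4.0.16, DESeq2 1.42.0, 2 groups alone, library weights, a replicate block, a leukocyte covariate, a length and GC correction, and each library left out.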

Additional observations from a re-analysis of the deposited data

Results flagged for a closer look

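Among the genes named, 10 differed in depleted minus irradiated epithelium in the direct limma test. The log2 differences were 4.02 for Saa3, 2.24 for Retnla, 2.05 for Timp1, 2.02 for Ptger3, 1.83 for Rgs4, 1.75 for Mt2 and 0.58 for Igfbp4, with every depleted library above every irradiated one. They were -0.68 for Rpl26, -0.64 for Rpl35a and -0.51 for mt-Nd4l. That of mt-Nd4l was -0.073 with the length and GC correction (limma adjusted p = 0.832).

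One library stood far from the other 3 of its group, by the gap to its nearest neighbour over the range of the group on the log2 scale, in 11 of 220 groups of 4 at the 95% level of Dixon's test. Chance gives about 1 in 20 groups, which is as many as were found. In depleted libraries these were Cldn18 (0.907), Kif23 (0.871), Cdh16 (0.865), Ngp (0.855), Aen (0.847), Mdm2 (0.845) and Psrc1 (0.832). Depleted replicate 4 was the library apart in Cldn18, Cdh16, Ngp, Aen, Mdm2 and Psrc1, and replicate 2 in Kif23. In sham libraries they were Saa3 (0.898), Id2 (0.878), Mki67 (0.87) and Trp53 (0.847).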

How the results depend on the processing

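Of the 100 called genes named in the text, 46 kept their call and direction in each of the 26 alternatives that tested them and 95 in each but the leukocyte covariate. Of the 100, 27 were not tested with a mean of at least 50. That covariate moved the counts most, to 287 genes called in depleted against sham (207 higher and 80 lower), against 1876 (1084 and 792). The covariate itself differs between the groups. Leaving out each library gave 1187 to 1934 genes called, 712 to 1102 higher and 475 to 832 lower. The other alternatives stayed within 1.5 times the reported counts, with 1792 by edgeR, 1917 by DESeq2 and 2140 with the length and GC correction. In depleted minus irradiated, against 79 genes, 288 were called by DESeq2, 52 with a mean of at least 50, 32 with the 2 groups alone and 36 to 199 with a library left out, and the cause was not tested. Among list counts of at least 4, the following also moved by over 1.5 times. With a mean of at least 50 the falls were 3 in the cell cycle list (against 7) and 1 among histones (against 5), and the rises were 4 in the inflammatory list (against 7), 1 in the Wnt list (against 4), 2 for leukocytes (against 4) and 1 for neutrophils (against 6). With no filter the type 2 falls were 3 (against 6), and the rises were 4 for cholesterol synthesis (against 7), 3 for endothelium (against 5) and 2 in the transitional list (against 4). DESeq2 called 9 endothelial rises, and the length and GC correction gave 7 rises in the unfolded protein response. The replicate block gave 9 rises each for endothelium and leukocytes and 3 histone falls, and with the length and GC correction 8 Wnt falls. Directions turned for 4 of the genes named. Ptprc was at -0.12 and Scgb1a1 at 0.10 with the leukocyte covariate, mt-Nd4l at 0.067 with the length and GC correction, alone and with the replicate block, and Trp53, which ranged between -0.072 and 0.057 with a library left out, was positive without depleted replicate 3. Of these only mt-Nd4l was called in the first place. Ptprc is itself 1 of the 14 markers whose mean is the leukocyte covariate, so its own level enters that adjustment. Libraries with the same replicate number did not deviate together (correlations of -0.06 to 0.05 between depleted and sham libraries), and with the replicate block 1780 genes were called in depleted against sham (1049 higher and 731 lower) and 94 in depleted minus irradiated. Pecam1 passed the test with the block (adjusted p = 0.000839), and with the block and the length and GC correction the adjusted p of Retnla and of Rpl26 in depleted minus irradiated was 0.0507. Depth limits genes at under about 3 reads a library, such as Ly6g, Saa1, Cdkn2a and the sham levels of S100a8, Ngp and Ccl7.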
